A study of Rattus norvegicus with 18 samples.

Results

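The epithelial sodium channel and the genes through which aldosterone acts on it were examined in the colonic mucosa of rats, as 10 genes chosen by name for their place in that pathway, with earlier results of these data known. They were Scnn1a, Scnn1b and Scnn1g, Prss8, Fxyd4, Nedd4l, Nr3c2, Hsd11b2, Sgk1 and Tsc22d3. On the array, 12 probe sets were annotated to exactly one of these symbols, and each of the 12 passed the filter on low signal. They are set among 21729 probe sets and 11407 genes that were tested in all.

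The samples were 18 Affymetrix rat arrays from 9 male Sprague Dawley rats, numbered 1 to 8 and 10, with 1 array of proximal and 1 array of distal colonic mucosa from each rat. Each rat was fed modified AIN-93G diet over 10 days, was injected subcutaneously with azoxymethane (AOM, a colon carcinogen) at 15 mg per kg and was killed 6 h later, so the carcinogen was common to both groups and no array came from an untreated rat. A length of 4 cm of each region was scraped with a glass slide after the outermost end had been discarded. The rats are described as having been allocated to 2 groups of which the labels give neither the members nor the difference, so distal colon was compared with proximal colon of the same animals and nothing else.

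The epithelial sodium channel (ENaC) is built of an alpha, a beta and a gamma subunit, encoded by Scnn1a, Scnn1b and Scnn1g, and lets sodium enter epithelial cells from the lumen. The basolateral sodium pump then carries the sodium to the blood side. Aldosterone acts through the mineralocorticoid receptor (Nr3c2), while Hsd11b2 inactivates the glucocorticoids that would otherwise occupy this receptor, and the kinase Sgk1 is an early induced gene that restrains the ubiquitin ligase Nedd4l, which removes the channel from the membrane. In the rat, electrogenic sodium absorption through this channel is known as a property of the distal colon, and aldosterone is known to raise the beta and gamma messages there more than the alpha message.

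The RefSeq promoters of the neighbouring genes Scnn1g and Scnn1b, and of Fxyd4, are shown because these are the genes whose levels are followed most closely. In the annotation Scnn1g and Scnn1b lie next to each other, with 0 genes between them, in the order Usp31, Scnn1g, Scnn1b, Cog7. Each sequence runs 5′ to 3′ on the gene's own strand in build GRCr8 and stops before the first base of the gene's annotation. Capitals mark the GC box GGGCGG or its reverse complement CCGCCC, the letters bound by Sp-type factors.
Scnn1g promoter, chr1:185735975-185736224, plus strand: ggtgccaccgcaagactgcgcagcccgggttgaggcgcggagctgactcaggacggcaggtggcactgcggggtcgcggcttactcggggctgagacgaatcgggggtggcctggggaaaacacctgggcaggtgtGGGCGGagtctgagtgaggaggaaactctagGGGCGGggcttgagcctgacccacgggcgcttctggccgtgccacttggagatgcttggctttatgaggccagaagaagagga
Scnn1b promoter, chr1:185861126-185861325, plus strand: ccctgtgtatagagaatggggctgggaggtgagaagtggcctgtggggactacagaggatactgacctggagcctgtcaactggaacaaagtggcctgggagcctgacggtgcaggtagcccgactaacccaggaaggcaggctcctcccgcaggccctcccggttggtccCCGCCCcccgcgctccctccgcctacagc
Fxyd4 promoter, chr4:152786119-152786295, minus strand: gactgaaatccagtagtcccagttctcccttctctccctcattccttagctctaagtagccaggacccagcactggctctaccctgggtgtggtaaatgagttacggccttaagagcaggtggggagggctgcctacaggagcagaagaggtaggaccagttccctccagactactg

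The stretch of Scnn1g held 2 GC boxes, that of Scnn1b held 1 and that of Fxyd4 held 0. The 300-base window of Fxyd4 held 1, outside the stretch shown. Promoter windows of 300 bases (250 before the annotated start) were held for 6 of the 10 genes, 10 windows in all. Sgk1 and Tsc22d3 had several windows each, so the 10 windows do not stand for 10 separate genes. A GC box was found on either strand in 8 of these 10 windows and in 33.1% of all 33469 promoters of the same length. The core AGAACA of the element bound by corticosteroid receptors (reverse complement TGTTCT) was found in 0 of the 10 windows and in 20.7% of all promoters, and the TATA box TATAAA in 3 of the 10 and in 14.2%. The windows with a TATA box all belonged to Sgk1 or Tsc22d3. All of the matches are matches of letters in a short window and were not tested for binding.

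Values are given as log2 signal, the log2 of the deposited intensity plus 16 after quantile normalization, and differences are distal minus proximal. The signal of 1 probe set is not comparable with that of another, so levels are compared between arrays and not between genes. The region labels were checked with Hoxb13, a homeobox gene of the hindmost gut, which had 7.77 ± 2.08 (SD, n = 9) in proximal and 11.87 ± 0.16 (SD, n = 9) in distal colon and no overlap. The mean log2 signal of 8 epithelial markers ran from 12.65 to 12.98 in proximal and from 12.80 to 12.90 in distal arrays. In proximal colon it was lowest in rat 3 (12.65) and rat 6 (12.81), against 12.86 to 12.98 in the other rats. Of the 8 markers, Vil1 alone passed the threshold, with a difference of -0.43 (limma adjusted p 0.000438). A mean over 10 smooth muscle markers was highest in the proximal array of rat 3 (12.10), the distal array of rat 3 (9.74) and the distal array of rat 7 (9.69), against 6.37 to 8.51 in the other arrays. The proximal arrays of rats 3 and 6 also stood apart in several of the genes described here, and results that rest on them are given with and without them. In a scraped tissue, fewer cells that express a gene and less of its RNA per cell cannot be told apart.

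All 3 channel subunits were higher in distal colon. Fxyd4 and Prss8 were also higher there, and Nedd4l was lower. Of the 10 genes, 5 were thus higher in distal colon at an adjusted p below 0.05 in the limma fit, where 16.2% of all genes passed in that direction. A single gene was higher in proximal colon, where 14.5% of all genes passed. The other 4, Nr3c2, Hsd11b2, Sgk1 and Tsc22d3, did not pass. Together these were 6 of 10 genes, where 30.8% of all genes passed in either direction. With the deposited scaling, under which the median of all genes was -0.095, 4 of the 10 were higher in distal colon, where 3.95% of all genes passed, and 1 in proximal colon, where 13.6% passed. The median difference of the 10 genes was 0.31 and that of all genes 0.014.

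**Figure D1:**
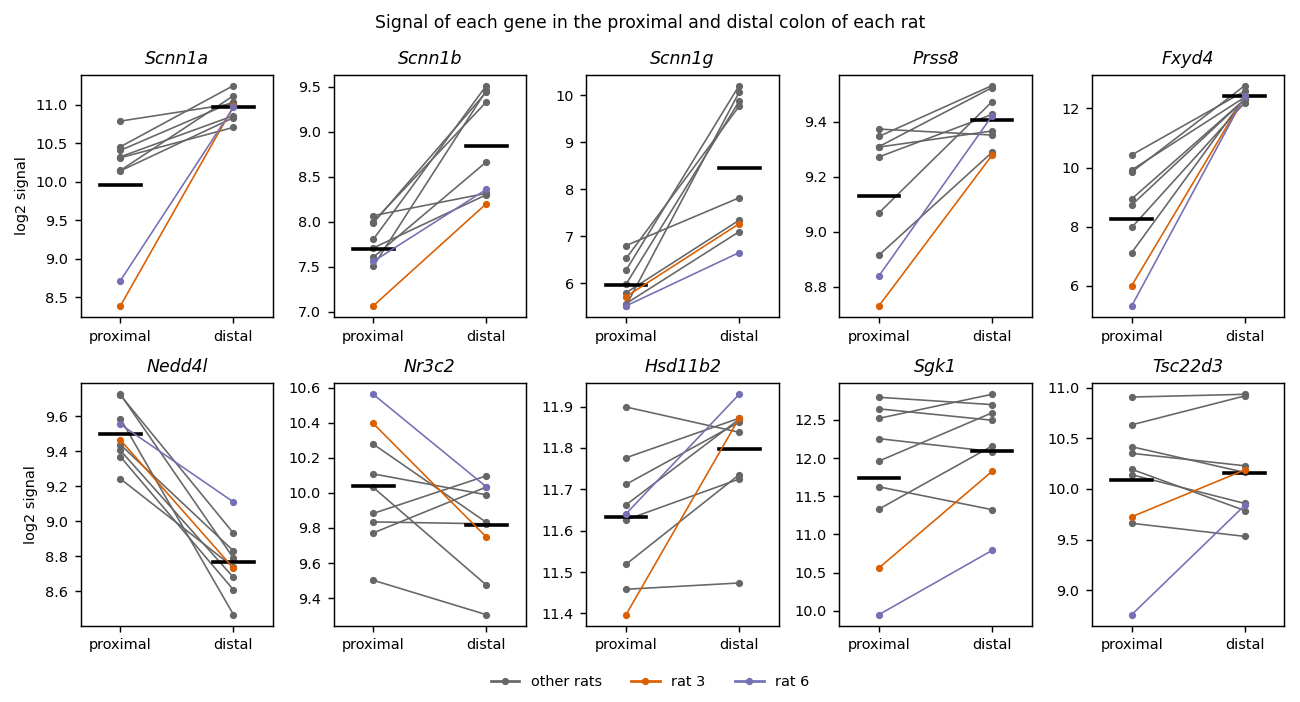
Log2 signal of each gene (vertical axis) in the proximal and distal colon of each rat, with a line joining the arrays of one rat and a black bar at the mean of each region (n = 9). Rats 3 and 6 are coloured, and their proximal arrays are the lowest for Scnn1a (8.39 and 8.72) and for Fxyd4 (6.01 and 5.33).

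Scnn1a encodes the alpha subunit, which the channel needs in order to reach the membrane. Its log2 signal in proximal colon ran from 8.39 through a median of 10.31 to 10.79, and in distal colon from 10.71 through 10.98 to 11.25. The ranges overlapped, and the proximal spread came from rats 3 and 6, with 8.39 and 8.72, while the other 7 proximal arrays lay between 10.14 and 10.79. The mean was 9.97 ± 0.83 (SD, n = 9) in proximal and 10.98 ± 0.16 (SD, n = 9) in distal colon. The difference of 1.01 ± 0.25 (SE), or 2.01-fold, had an adjusted p of 0.00581 in limma and was positive in 9 of 9 rats. With the proximal arrays of rats 3 and 6 left out it was 0.61, or 1.52-fold, with an adjusted p of 5.81e-05. The other probe set of Scnn1a gave 7.67 ± 1.01 in proximal and 8.84 ± 0.33 in distal arrays (SD, n = 9), a difference of 1.17 ± 0.32 (SE) with a limma adjusted p of 0.00992, again in 9 of 9 rats.

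Scnn1b encodes the beta subunit. Its signal ran from 7.07 through 7.71 to 8.07 in proximal and from 8.20 through 8.67 to 9.51 in distal colon. No proximal array reached the lowest distal array. The means were 7.70 ± 0.31 and 8.84 ± 0.58 (SD, n = 9), and the difference of 1.14 ± 0.20 (SE), 2.21-fold, had an adjusted p of 0.000279 in limma and was positive in 9 of 9 rats. Within single rats the difference went from 0.25 in rat 2 to 1.95 in rat 7.

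Scnn1g, which encodes the gamma subunit, had the widest difference of the 3 subunits and also the widest spread among distal arrays. Its proximal signal ran from 5.52 through 5.80 to 6.80, close to the level of 5.54 below which probe sets were left out, and its distal signal from 6.66 through 7.82 to 10.20. The ranges overlapped only through the highest proximal array, that of rat 2 at 6.80, and the lowest distal array, that of rat 6 at 6.66. The means were 5.97 ± 0.47 and 8.45 ± 1.48 (SD, n = 9). The difference was 2.48 ± 0.47 (SE), 5.59-fold, with an adjusted p of 0.000528 in limma, and was positive in 9 of 9 rats, from 2.02-fold in rat 2 to 23.1-fold in rat 5. In deposited intensities the proximal arrays read 27.5 to 104.9 and the distal arrays 70.4 to 1245, and because the proximal values are low the difference moved with the added constant, to 2.81 with a constant of 1 and to 1.90 with a constant of 64.

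The second probe set of Scnn1g gave a smaller difference. It read 6.37 ± 0.28 in proximal and 7.63 ± 1.22 in distal arrays (SD, n = 9), a difference of 1.26 ± 0.38 (SE) with a limma adjusted p of 0.0180, positive in 7 of 9 rats. The difference from the first probe set was larger in every rat, by 1.22 ± 0.40 on average (SD, n = 9 rats), with an exact sign permutation p of 0.00391, the smallest that 512 sign patterns allow. Both probe sets ordered the distal arrays into the same high and low sets, as the plot of the subunit signals by array shows.

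The size of the difference was next compared among the subunits within each rat, as an exact permutation of signs over 9 rats, two-sided and adjusted over the 3 pairs. The difference of Scnn1g exceeded that of Scnn1b by 1.34 ± 0.95 (SD), in 9 of 9 rats, with an exact p of 0.00391 and an adjusted p of 0.0117. With the second Scnn1g probe set the gap was 0.12, with an exact adjusted p of 0.699, and with the mean of the probe sets of each gene it was 0.73, with an exact adjusted p of 0.141, so the inequality rested on the first probe set. The difference of Scnn1g exceeded that of Scnn1a by 1.47 ± 1.97 (SD), in 7 of 9 rats, with an exact p of 0.0742 and an adjusted p of 0.111. Both exceptions were rats 3 and 6, whose proximal Scnn1a was lowest. The gap was 0.78 with the mean of the probe sets (exact adjusted p 0.410), 0.25 with the second Scnn1g probe set (exact adjusted p 0.699) and 0.089 with the other probe sets of both genes (exact adjusted p 0.926). Scnn1b and Scnn1a differed by 0.13 ± 1.08 (SD), in 5 of 9 rats, with an exact adjusted p of 0.699, and in single rats the gap went from -1.46 to 1.26.

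In distal colon, Scnn1b and Scnn1g separated the same rats. The distal Scnn1g signal was 10.20 in rat 10, 10.06 in rat 5, 9.87 in rat 7 and 9.76 in rat 8, and lay between 6.66 and 7.82 in the other 5 rats. The distal Scnn1b signal was 9.44, 9.51, 9.46 and 9.33 in rats 10, 5, 7 and 8, and lay between 8.20 and 8.67 in the others. No array lay between these sets for either gene. Because the arrays fell into separate sets, no correlation is given for this pair in distal colon. Scnn1a did not divide these rats, with distal signals of 11.02, 11.04, 10.83 and 10.71 in rats 10, 5, 7 and 8 against 10.86 to 11.25 in the other 5. Distal Sgk1 was 12.70, 12.83, 12.59 and 12.09 in rats 10, 5, 7 and 8 against 10.79 to 12.49 in the other 5. No relation of Sgk1 to Scnn1b or Scnn1g passed adjustment over the 22 relations computed within regions. The labels do not give the allocation group of each rat, so whether these 4 rats shared one was not tested. The mean over 7 immune markers in distal arrays was 9.87, 9.71, 8.22 and 9.37 in rats 10, 5, 7 and 8 against 7.91 to 8.97 in the others, and the smooth muscle mean was high in rat 7 alone among the 4. The part of either cell type in the spread was not tested.

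**Figure D2:**
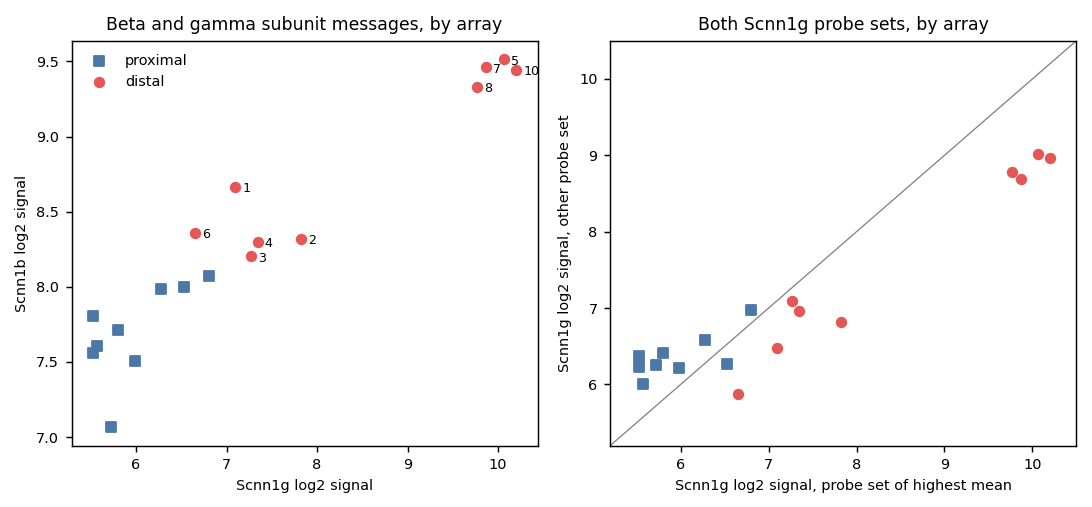
Left, log2 signal of Scnn1b against that of Scnn1g in each of the 18 arrays, with rat numbers beside the distal arrays. Right, the 2 probe sets of Scnn1g against each other with the line of equal signal. The distal arrays of rats 5, 7, 8 and 10 lie apart at Scnn1g signals of 9.76 to 10.20.

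In proximal colon Scnn1b and Scnn1g had Pearson r = 0.659 over the 9 rats, with an exact permutation p of 0.0514 and an adjusted p of 0.122 over the 22 relations computed within regions. Spearman's rho was 0.617 with an exact p of 0.0857 and an adjusted p of 0.189. Without rats 2 and 3, the farthest from the median, r was 0.693. For Scnn1a with Scnn1b in proximal colon, r was 0.793 over 9 rats (exact p 0.00589, adjusted p 0.0446). Spearman's rho was 0.717 with an exact p of 0.0369 and an adjusted p of 0.135. Over the 7 rats other than 3 and 6, whose arrays lay apart, r was 0.552 and did not pass (exact adjusted p 0.299). For Sgk1 with Scnn1b in proximal colon, r was 0.761 over 9 rats (exact p 0.0156, adjusted p 0.0731). Without rats 3 and 6 that r was 0.761 with an exact adjusted p of 0.265.

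Prss8 encodes prostasin, a membrane-anchored serine protease that activates the channel by cleaving its gamma subunit. Its signal ran from 8.73 through 9.27 to 9.37 in proximal and from 9.28 through 9.42 to 9.53 in distal colon. The ranges overlapped, and the lowest proximal arrays were those of rats 3, 6 and 10. The means were 9.13 ± 0.25 and 9.41 ± 0.093 (SD, n = 9), a difference of 0.28 ± 0.087 (SE), 1.21-fold, higher in 8 of 9 rats, with an adjusted p of 0.0230 in limma. This call was kept in 16 of 22 alternatives, fewer than those of the other 5 called genes, which were kept in 22. It was lost with the deposited scaling (0.19, limma adjusted p 0.407), with median centring (0.33, adjusted p 0.0593), with rats 3 and 6 left out of the proximal arrays (0.18, adjusted p 0.0700), without rat 6 (0.24, adjusted p 0.0636) and without rat 7 (0.26, adjusted p 0.0595).

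Fxyd4, also called CHIF, is a small membrane protein that binds the sodium pump and raises its affinity for sodium. Its other name stands for corticosteroid hormone-induced factor, after its response to these hormones. Its proximal signal ran from 5.33 through 8.73 to 10.43, and its distal signal from 12.20 through 12.38 to 12.77. No proximal array came near the distal range. The means were 8.26 ± 1.79 and 12.42 ± 0.17 (SD, n = 9), and the difference of 4.16 ± 0.54 (SE), 17.9-fold, had an adjusted p of 9.17e-06 in limma. It was positive in 9 of 9 rats and ranked 2 of 11407 genes toward distal colon. The distal arrays were alike, whereas the proximal arrays differed widely, with 6.01 in rat 3, 5.33 in rat 6 and 7.13 to 10.43 in the other 7. Without the proximal arrays of rats 3 and 6 the difference was 3.43, or 10.8-fold. The proximal level of Fxyd4 had Pearson r = 0.704 with that of Scnn1g over 9 rats (exact p 0.0364, adjusted p 0.107) and Spearman's rho 0.817 (exact p 0.0108, adjusted p 0.0790). Without rats 3 and 6 that r was 0.680 with an exact adjusted p of 0.265.

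Nedd4l encodes the ubiquitin ligase NEDD4-2, which binds the tails of the channel subunits and directs the channel to degradation, and it was the only one of the 10 genes that passed the threshold as higher in proximal colon. Its signal ran from 9.24 through 9.46 to 9.73 in proximal and from 8.47 through 8.74 to 9.11 in distal colon. The ranges did not overlap, and the distal array was the lower one in 9 of 9 rats. The means were 9.50 ± 0.16 and 8.76 ± 0.19 (SD, n = 9), and Nedd4l fell by 0.74 ± 0.083 (SE) on the log2 scale, 1.67-fold, from proximal to distal colon, with an adjusted p of 1.61e-06 in limma. The proximal arrays of rats 3 and 6, at 9.46 and 9.55, lay within the range of the others for this gene. Over the 22 alternatives the difference stayed between -0.82 and -0.68. Among the 10 genes the ranges of the 2 regions did not overlap for 2 that were higher in distal colon, Scnn1b and Fxyd4, and for Nedd4l in the other direction. Over all genes 3.22% and 3.67% had no overlap in these directions.

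**Figure D3:**
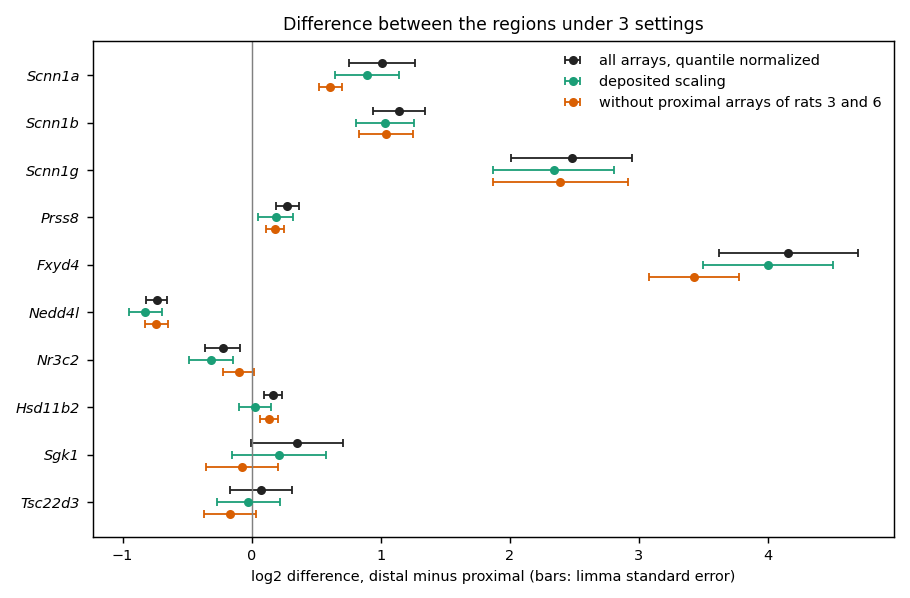
Log2 difference, distal minus proximal, of each gene with limma's standard error as bars, for all 18 arrays after quantile normalization, for the deposited scaling and without the proximal arrays of rats 3 and 6. The 3 subunits and Fxyd4 lie to the right of 0 and Nedd4l to the left under each setting, and leaving out those arrays moved Fxyd4 from 4.16 to 3.43 and Scnn1a from 1.01 to 0.61.

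The receptor and its guarding enzyme differed little between the regions. Nr3c2, the mineralocorticoid receptor, ran from 9.50 through 10.03 to 10.56 in proximal and from 9.31 through 9.83 to 10.10 in distal colon. The ranges overlapped over most of their length, and the highest proximal arrays were those of rats 3 and 6, at 10.40 and 10.56. The means were 10.04 ± 0.33 and 9.82 ± 0.27 (SD, n = 9), and the difference was -0.23 with a 95% interval of -0.50 to 0.052 and a limma adjusted p of 0.228, with 2 of 9 rats higher in distal colon. Without the proximal arrays of rats 3 and 6 it was -0.10.

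Hsd11b2, the dehydrogenase that lets aldosterone reach its receptor, ran from 11.40 through 11.64 to 11.90 in proximal and from 11.47 through 11.86 to 11.93 in distal colon. The lowest arrays were those of rats 3, 5 and 10 in proximal colon and that of rat 5 in distal colon. The means were 11.63 ± 0.16 and 11.80 ± 0.14 (SD, n = 9), and the difference of 0.16 had a 95% interval of 0.024 to 0.31 and a limma adjusted p of 0.0778, with 8 of 9 rats higher in distal colon. With the rat as a block in limma the same difference had an adjusted p of 0.0279. Without rat 2 it had an adjusted p of 0.0470 and without rat 5 of 0.0346, and with the deposited scaling the difference was 0.028 (adjusted p 0.914).

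Sgk1, the kinase that phosphorylates Nedd4l, ran from 9.95 through 11.96 to 12.80 in proximal and from 10.79 through 12.16 to 12.83 in distal colon. Both ranges were wide and overlapped, and rat 6 was lowest in both regions, at 9.95 and 10.79. The means were 11.74 ± 0.98 and 12.09 ± 0.68 (SD, n = 9). The difference was 0.35, with a 95% interval of -0.39 to 1.10 and a limma adjusted p of 0.510, positive in 5 of 9 rats. Without the proximal arrays of rats 3 and 6 it was -0.072. With the rat as a block over all 9 rats, the difference of 0.35 had an SE of 0.15 and a limma adjusted p of 0.102. With both arrays of rats 3 and 6 left out and the rat as a block it was 0.15 (limma adjusted p 0.407).

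Tsc22d3 encodes GILZ, a leucine zipper protein induced by glucocorticoids and aldosterone. Its signal ran from 8.76 through 10.19 to 10.91 in proximal and from 9.53 through 10.16 to 10.93 in distal colon. The ranges overlapped, with rat 6 lowest in proximal colon (8.76) and rat 10 highest in both regions. The means were 10.09 ± 0.64 and 10.16 ± 0.49 (SD, n = 9), and the difference of 0.073 had a 95% interval of -0.43 to 0.58 and a limma adjusted p of 0.857, positive in 4 of 9 rats. It was -0.025 with the deposited scaling and -0.17 without the proximal arrays of rats 3 and 6.

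Sgk1 and Tsc22d3 had SDs among rats larger than their differences between the regions, and in proximal colon they varied together. In proximal colon their Pearson r was 0.946 over 9 rats, with an exact permutation p of 6.61e-05 and an adjusted p of 0.00146 over the 22 relations, and Spearman's rho was 0.950 with an exact p of 0.000353 and an adjusted p of 0.00776. Without rats 3 and 6, the farthest from the median, r was 0.916, with an exact adjusted p of 0.0480. In distal colon r was 0.580, with an exact p of 0.0969 and an adjusted p of 0.152, and rho was 0.583 with an exact p of 0.108 and an adjusted p of 0.198. Without rats 4 and 6 the distal r was 0.554. The difference between the proximal and the distal relation was not tested.

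Whether a rat with a high signal in one region had a high signal in the other was examined for each gene, and no relation passed adjustment over the 10 genes. For Sgk1, r between the regions was 0.829 (exact p 0.00665, adjusted p 0.0665) and rho 0.783 (exact p 0.0172, adjusted p 0.107). Without rats 3 and 6, r was 0.655 with an exact adjusted p of 0.337. For Tsc22d3, r was 0.682 (exact p 0.0425, adjusted p 0.213) and rho 0.767 (exact p 0.0214, adjusted p 0.107). Without rats 6 and 10, the farthest from the median, that r was 0.702, and without rats 3 and 6 it was 0.933 with an exact adjusted p of 0.00992. Rats 5 and 10 had the highest Tsc22d3 in both regions. For Nr3c2, Hsd11b2, Nedd4l, Fxyd4 and Prss8, r between the regions lay between 0.285 and 0.539, with adjusted exact p-values from 0.445 to 0.514, and after the 2 rats farthest from each median were dropped it lay between -0.375 and 0.813. No value is given for the channel subunits, whose arrays lay in separate sets in one region or the other.

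**Figure D4:**
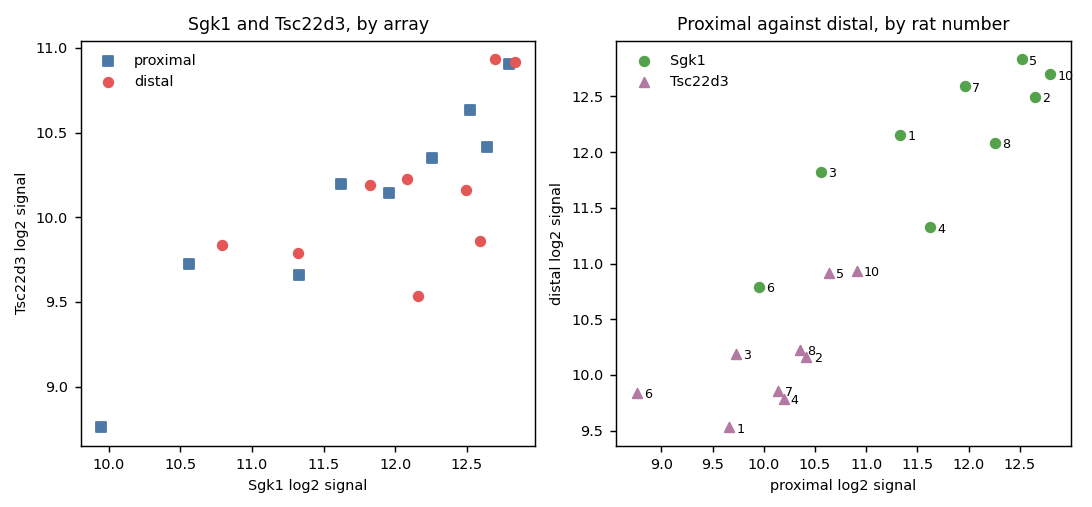
Left, log2 signal of Tsc22d3 against that of Sgk1 in each array, by region. Right, distal against proximal log2 signal of each gene, with rat numbers. The 9 proximal arrays lie close to a line (r = 0.946), with rat 6 at the low end at 9.95 for Sgk1 and 8.76 for Tsc22d3.

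The genes with the pattern most like that of a channel or kinase gene were sought over the 18 arrays after the mean of each region had been removed, among 6586 genes with a log2 signal of at least 8. The 18 points come from 9 rats, and arrays of one rat share the animal, so the values are descriptions. The gene most like Scnn1g was Scnn1b (r = 0.885), followed by Dcun1d5 (0.876), Pdlim1 (0.795) and Tasor2 (0.774). Over the proximal arrays alone these values were 0.659, 0.687, 0.535 and 0.458, lower than with the 4 high distal arrays included. Scnn1g itself, at a mean log2 signal of 7.21, was below the level of 8 and was not among the genes searched. Its r of 0.885 with Scnn1b was higher than that of any gene found for Scnn1b. Among the genes searched, those most like Scnn1b were Ap4s1 (0.845), Gclm (0.797), Wac-ps1 (0.777) and Cog7 (0.758), the last being the next gene on the chromosome. Over the proximal arrays alone these were 0.738, 0.543, 0.924 and 0.358. For Cog7 the difference between the regions was 0.24 with a limma adjusted p of 0.117. The genes most like Sgk1 were Ammecr1l (0.917), Pcgf3 (0.904), Rhoc (0.899) and Slc25a25 (0.884), and over proximal arrays alone these were 0.968, 0.943, 0.923 and 0.908. Without the proximal arrays of rats 3 and 6, the values for Sgk1 were lower, at 0.852, 0.844, 0.825 and 0.812.

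Other genes of the pathway were examined in 6 lists chosen by function, whose counts stand beside 16.2% of all genes that passed as higher in distal and 14.5% as higher in proximal colon. Unlike Fxyd4, the subunits of the sodium pump and the other FXYD proteins gave no call, with 0 of 8 measured genes passing in either direction in limma and 2, Atp1b1 and Fxyd6, at an unadjusted p below 0.05, and with a median difference of -0.15. With the rat as a block, Fxyd6 passed at a limma adjusted p of 0.0289. Atp1b1, a beta subunit of the pump, was named for its mean signal, the highest in the list. It had 13.23 ± 0.12 in proximal and 13.34 ± 0.027 in distal arrays (SD, n = 9), a difference of 0.11 with a limma adjusted p of 0.0727. Fxyd3 had a difference of -0.20 with an adjusted p of 0.335.

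Of 8 channel-cleaving proteases and their inhibitors, 1 was higher in distal colon, 1 was higher in proximal colon, and the median was 0.019. Tmprss2, a membrane-bound serine protease, was 0.36 higher in distal colon, 1.28-fold, in 9 of 9 rats (limma adjusted p 0.000264), but not with the deposited scaling (0.21, adjusted p 0.192). St14, which encodes matriptase, an activator of prostasin, was lower in distal colon, with a difference of -0.21 (adjusted p 0.0400) that passed in 11 of 22 alternatives. The inhibitor Spint2 had a difference of -0.059 (adjusted p 0.317).

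Of 24 kinases and ubiquitin-related regulators of the channel, 2 were higher in distal colon and 4 in proximal colon, where 16.2% and 14.5% of all genes passed, and the median was -0.048. Ndfip2, an adaptor that recruits and activates ligases of the Nedd4 family, fell by 0.73 from proximal to distal colon, 1.66-fold, in 9 of 9 rats (limma adjusted p 1.83e-06), a size close to that of Nedd4l. Ywhab, a 14-3-3 protein of the family that holds phosphorylated Nedd4l inactive, was 0.55 higher in distal colon, 1.47-fold, in 9 of 9 rats (adjusted p 1.29e-05). Prkaa1, a catalytic subunit of the energy-sensing kinase AMPK, fell by 0.45, in 9 of 9 rats (adjusted p 2.65e-05), and Commd1 fell by 0.28 (adjusted p 0.00515). The calls of Ndfip2, Ywhab and Prkaa1 were kept in 22 of 22 alternatives and that of Commd1 in 21. Ywhae, another 14-3-3 protein, had a difference of 0.062 (adjusted p 0.291).

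Of 10 genes for the corticosteroid receptors, their chaperones and ligand supply, 2 were higher in distal colon and 2 in proximal colon, with a median of -0.26. The glucocorticoid receptor Nr3c1 fell by 0.33 from proximal to distal colon, 1.25-fold, lower in 8 of 9 rats (limma adjusted p 0.00230), in 22 of 22 alternatives. The coactivator Ncoa1 fell by 0.32 (adjusted p 0.0417), in 10 of 22 alternatives. The receptor chaperones Fkbp4 and Hsp90ab1 were higher in distal colon by 0.29 and 0.21 (adjusted p 0.00398 and 0.0216), and neither passed with the deposited scaling (adjusted p 0.178 and 0.798). Ptges3, a further chaperone, had a difference of -0.032 (adjusted p 0.751).

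Of 13 genes known to be induced by corticosteroids, 4 were higher in distal colon and 1 in proximal colon, where 16.2% and 14.5% of all genes passed, and the median was -0.16. Ndrg2, an aldosterone-responsive gene, ran from 9.39 to 10.34 in proximal and from 11.05 to 11.66 in distal colon, without overlap. Its difference of 1.26 ± 0.11 (SE), 2.40-fold, had a limma adjusted p of 6.69e-08. Lcn2, which encodes a siderophore-binding protein of inflamed epithelium, fell by 1.34 ± 0.33 (SE) from proximal to distal colon (adjusted p 0.00483), with low signals in both regions. Edn1 (endothelin 1) and Dusp1 were 0.51 and 0.38 higher in distal colon (adjusted p 0.0242 and 0.0450), and these calls were kept in 17 and 6 of 22 alternatives. Mt2A and Errfi1 had differences of -0.35 and 0.18 (adjusted p 0.130 and 0.291), and Mt2A passed in 6 of the 22 alternatives.

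Of 10 transcription regulators tied to the channel genes or to the colonic epithelium, 3 were higher in distal colon and 3 in proximal colon, where 16.2% and 14.5% of all genes passed, with a median of 0.13. Mllt3 (AF9), a partner of Dot1l in the repression of Scnn1a, fell by 0.73 from proximal to distal colon in 9 of 9 rats (limma adjusted p 0.0109), and the intestinal homeobox gene Cdx2 fell by 0.63 in 8 of 9 rats (adjusted p 0.00467), both in 22 of 22 alternatives. Dot1l itself was 0.29 higher in distal colon, in 7 of 9 rats (adjusted p 0.0135). Nfat5 fell by 0.34 (adjusted p 0.0327) and Hnf4a was 0.36 higher in distal colon (adjusted p 0.00119), kept in 17 and 18 alternatives. The epithelial factors Klf4 and Klf5 had differences of 0.048 and -0.082 (adjusted p 0.733 and 0.195).

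**Figure D5:**
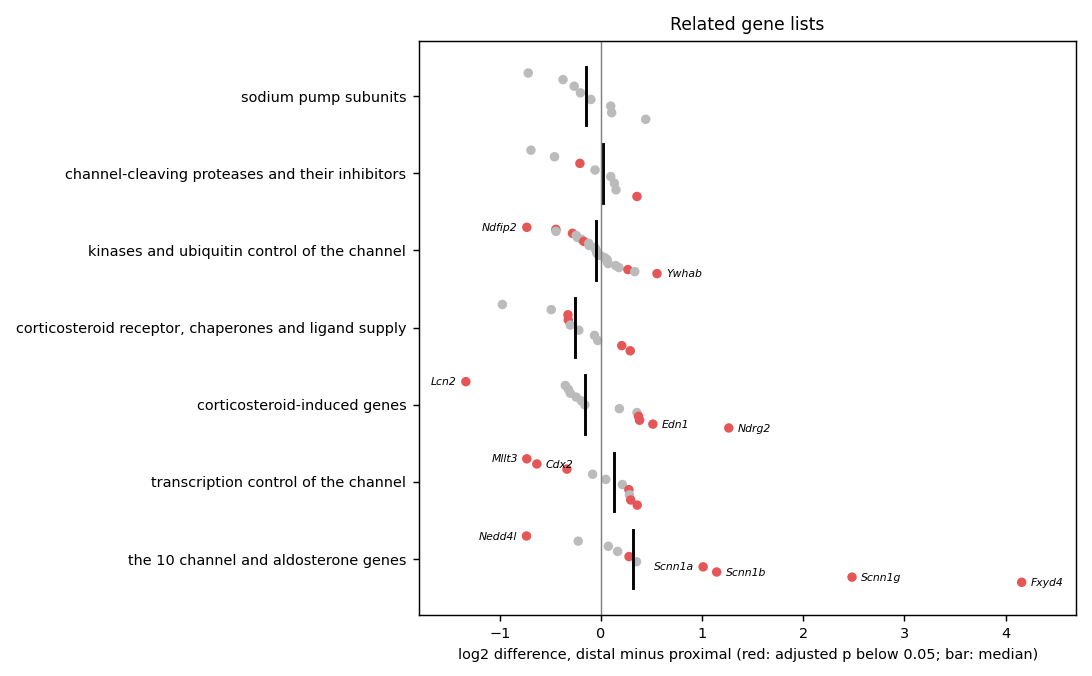
Log2 difference, distal minus proximal, of each measured gene of the 6 lists and of the 10 genes themselves, with the median of each as a bar and genes with a limma adjusted p below 0.05 in red. The list medians lie between -0.26 and 0.13, and Fxyd4 and Scnn1g lie farthest to the right, at 4.16 and 2.48.

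Colonocyte markers of the surface epithelium also differed between the regions, beside the channel genes. Of 9 such markers, 6 were higher on the proximal side and 2 on the distal side, where 14.5% and 16.2% of all genes passed, and their mean ran from 10.66 to 11.52 in proximal and from 10.04 to 10.73 in distal arrays. In proximal colon this mean was lowest in rat 3 (10.66) and rat 6 (11.04), the rats with the lowest proximal Scnn1a and Fxyd4. Rat 8 was nearly as low as rat 6, at 11.07. Its proximal Scnn1a and Fxyd4 were 10.31 and 8.73, above those of rats 3 and 6. The mean of 7 fibroblast markers ran from 6.44 to 11.40 in proximal and from 6.65 to 10.75 in distal arrays, and that of the 7 immune markers that passed the filter on low signal from 7.38 to 9.85 and from 7.91 to 9.87, in the same order of regions. The part of these cells in the differences was not tested. Of 6 markers of crypt and cycling cells, 2 were higher in distal colon (Lgr5 by 0.90 and Ascl2 by 0.65) and 3 in proximal colon, among them Ccna2, which fell by 0.91 from proximal to distal colon. Of 7 goblet cell markers, Tff3 was higher in distal colon by 0.41, and Muc2 and Zg16 fell by 0.20 and 1.87 from proximal to distal colon. Atp12a, the colonic proton-potassium pump, which is also known to respond to aldosterone, ran from 5.05 through 8.56 to 9.99 in proximal and from 11.43 through 12.04 to 12.56 in distal colon. Its difference was 3.84, 14.3-fold, with a limma adjusted p of 3.17e-05, and it was higher in distal colon in 9 of 9 rats.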

How the data were processed

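The genes and the related lists were chosen with earlier results of these data known. Intensities on a linear scale were deposited by the authors, who made them with MAS5 per the submitters' processing notes; its version is not given in the sources used here, and no scaling target is stated and no detection calls were used. The deposited values were not on a common scale, with a trimmed mean (2% at each end) of 210.3 to 341.2 over the arrays. From 31042 probe sets that are not controls, log2(intensity + 16) was computed and quantile normalized in limma 3.58.1 (R 4.3.3), which removes any overall shift between the regions. The 30% of probe sets of lowest mean (below 5.54) were left out. Distal and proximal colon were compared by lmFit and eBayes (intensity trend), without a block, two-sided, with Benjamini-Hochberg adjustment over 21729 probe sets, and a gene was called at an adjusted p below 0.05. Symbols came from the platform annotation, and the probe set of highest mean stood for its gene. Exact permutation tests were made in Python 3.11.15. Folds are on the log2(intensity + 16) scale, which understates the change of low signals. With 9 arrays a region, their number limits the precision.

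All 10 genes were named with all their probe sets. From each list, up to 4 called genes of largest difference and up to 2 of highest mean were named. For Scnn1b, Scnn1g and Sgk1, the 4 most like each among the genes searched were named. Fxyd6 was chosen for naming after its values were known. Rat numbers make pairs of arrays, since both regions came from the same animal. After each region's mean was removed, the r between both arrays of a rat ran from 0.000945 to 0.569 (median 0.226, with 6 of the 9 over 0.1), while the median r of arrays from different rats was -0.031. The best match was the array of the same rat in only 4 of the 9. Alternatives were the deposited scaling, median centring, other constants and filters, the rat as a block, no trend, the mean of a gene's probe sets, and arrays left out. The fit was tested on simulated data. Promoters were RefSeq's (GRCr8).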

Additional observations from a re-analysis of the deposited data

Results flagged for a closer look

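The distal signal of Hsd11b2 in rat 5 was 11.47, below the other 8 distal arrays, which lay between 11.72 and 11.93. The gap to the nearest array was 0.551 of the whole range, above Dixon's critical value of 0.493 for 9 samples. It was the only one of 24 groups of 9 arrays (12 probe sets in each region) that passed this limit, which chance passes in about 1 of 20 groups. The proximal Hsd11b2 signal of the same rat was 11.46, close to its distal signal.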

How the results depend on the processing

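The differences of Scnn1a, Scnn1b, Scnn1g, Fxyd4 and Nedd4l kept their direction and their call in 22 of 22 alternatives, and the values ranged from 0.61 to 1.11 for Scnn1a, from 0.99 to 1.25 for Scnn1b, from 1.87 to 2.84 for Scnn1g, from 3.43 to 4.42 for Fxyd4 and from -0.82 to -0.68 for Nedd4l. Nr3c2, Sgk1 and Tsc22d3 passed in none of the 22. The deposited scaling lowered the number of genes called from 3510 to 2003, with 451 higher on the distal side and 1552 on the proximal side (3.95% and 13.6% of genes), and moved the median of all genes to -0.095. With the replicate block, that is the pairing by rat, the call of Hsd11b2 was gained (difference 0.16, limma adjusted p 0.0279) and no other call among the 10 genes changed. With the replicate block on the deposited scaling, a combination chosen after seeing the data, the difference of Prss8 was 0.19 (adjusted p 0.243) and that of Hsd11b2 0.028 (adjusted p 0.875). With the replicate block and without rats 3 and 6, that of Hsd11b2 was 0.11 (adjusted p 0.0781). The excess of Scnn1g over Scnn1a became 2.20 without rats 3 and 6, the rats in which it was negative, so its rise follows from that choice. It became 0.78 with the mean of the probe sets, 0.25 with the other probe set of Scnn1g and 0.089 with the other probe sets of both genes. The excess of Scnn1g over Scnn1b became 0.73 with the mean of the probe sets, 0.12 with the other probe set of Scnn1g and 0.12 with the other probe sets of both Scnn1a and Scnn1g, the last settings having been added after seeing the data. The relations that passed between the regions went from 0 to 1 without rats 3 and 6, and those within a region from 3 to 1 without rats 3 and 6, to 1 with Spearman's rho and to 1 without the 2 rats farthest from the median. The 3 were Sgk1 with Tsc22d3 and Scnn1a with Scnn1b in proximal colon and Scnn1b with Scnn1g in distal colon, the first of which was the 1 that passed in each. Settings that left out rats 3 and 6, or the rats of high smooth muscle signal, left out both arrays of a rat where rats were compared. The cause of these changes was not tested. The proximal signal of Scnn1g lay near the filter, which limits how closely its fold is known.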
